A study of Caenorhabditis elegans with 2 samples.

Results

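The genes encoding mitochondrial ribosomal proteins of Caenorhabditis elegans were taken as the nuclear protein-coding genes whose names start with mrpl- or mrps- in the Ensembl annotation of WBcel235. They numbered 70 of 19973 nuclear protein-coding genes, 41 of them mrpl genes, named for the large ribosomal subunit, and 29 mrps genes, named for the small one. LSY-2 is a transcription factor with C2H2 zinc fingers, and its binding had been mapped by ChIP-seq in whole L2 larvae of mixed sex. The worms were of strain OP240, which carries wgIs240, an insertion expressing eGFP-tagged LSY-2, together with the allele unc-119(ed3) on chromosome III. There was 1 group of 2 biological replicates, and both carry the transgene and the allele, so no untagged or untreated worms were compared. All cell types of the larva were pooled, and the regulatory sequence of the transgene was not given in the sources used here.

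Mitochondrial ribosomes translate the few proteins encoded by mitochondrial DNA, which are core subunits of the respiratory chain and the ATP synthase. All their proteins are encoded in the nucleus, made in the cytosol and imported, so the 2 genomes have to be expressed together. In C. elegans many such genes sit in operons, where several genes on the same strand are transcribed from a promoter upstream of the first gene and the later ones are separated by trans-splicing. In this worm, lowering mrps-5 is known to extend lifespan and to induce the mitochondrial unfolded protein response.

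Regions are those the authors called on ce11. A thresholded region is one in their list thresholded on the irreproducible discovery rate, which measures how well ranks repeat between replicates. At these genes the list kept the rank order of signal for both replicates together, so a listed region need not repeat in rank. A gene was counted when the summit of a thresholded region lay in its promoter window, which reached 1000 bp up and 200 bp down from the annotated 5′ end. The list held 2182 thresholded regions, and each replicate's own list held 30000 regions, peaks and background together. Each region carries a signal value set by the authors, which is not scaled between replicates. No read counts accompany it, so sequencing depth is unknown. With 1 group, no test between conditions was possible, and the shares below are descriptions set beside those of all genes.

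Summit windows reach 50 bp to each side of a summit. Of the 27 at these genes, 11 (40.7%) held the letters CGCAAAC or GTCCGCA on either strand, against 9.23% of 2155 other summit windows. The strings were chosen after the 27 windows had been read, so the count only describes them. The windows printed first are members in which these letters recur. Capitals mark CGCAAAC and GTCCGCA, and also GCGTCTC and GAGAGA, wherever they or their reverse complements occur. Coordinates are those of ce11, the sequence is that of RefSeq for the same assembly, and each is written along the strand of the named gene.

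mrps-28 (chrV:19644061-19644161, plus strand): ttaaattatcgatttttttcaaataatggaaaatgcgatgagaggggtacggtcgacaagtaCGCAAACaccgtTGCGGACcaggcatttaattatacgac
mrpl-28 (chrII:156072-156172, minus strand): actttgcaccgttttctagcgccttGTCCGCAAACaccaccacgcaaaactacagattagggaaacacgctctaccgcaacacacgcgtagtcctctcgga
mrpl-45 (chrIII:1202303-1202403, minus strand): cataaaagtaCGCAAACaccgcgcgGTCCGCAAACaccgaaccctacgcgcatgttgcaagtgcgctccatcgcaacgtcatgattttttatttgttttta
mrps-16 (chrII:5474091-5474191, plus strand): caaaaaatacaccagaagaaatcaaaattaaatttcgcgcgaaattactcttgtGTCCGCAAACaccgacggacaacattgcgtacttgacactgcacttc
mrps-18A (chrIII:8331960-8332060, minus strand): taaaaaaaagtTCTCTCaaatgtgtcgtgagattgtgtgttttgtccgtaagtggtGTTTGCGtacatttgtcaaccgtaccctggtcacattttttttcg

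The next windows lack both strings. The first pair holds GCGTCTC, read here as its reverse complement GAGACGC in mrps-7 and within a stretch of GAGAGA in mrpl-35. The last window lies between a large subunit and a small subunit gene and serves as the window of both, with none of these letters.

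mrps-7 (chrIV:14767852-14767952, minus strand): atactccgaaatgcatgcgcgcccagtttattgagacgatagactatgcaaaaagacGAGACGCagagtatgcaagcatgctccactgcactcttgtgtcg
mrpl-35 (chrIII:3510064-3510164, plus strand): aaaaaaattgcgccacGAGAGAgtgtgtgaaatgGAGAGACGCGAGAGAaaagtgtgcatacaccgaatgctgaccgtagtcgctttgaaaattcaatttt
mrpl-1 and mrps-24 (chrIV:7709856-7709956, minus strand): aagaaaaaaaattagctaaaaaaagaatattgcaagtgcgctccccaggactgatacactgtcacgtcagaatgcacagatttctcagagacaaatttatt

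LSY-2 summits lay at 28 of the 70 mitochondrial ribosomal protein genes (40.0%, 95% Wilson interval 29.3 to 51.7%), against 9.85% of all nuclear protein-coding genes. The large subunit names held 17 of 41 (41.5%) and the small subunit names 11 of 29 (37.9%). No member had more than 1 thresholded summit. Among the 2182 regions of highest signal of each replicate alone, 26 members had one in replicate 1 (9.62% of all genes) and 28 in replicate 2 (9.62% of all genes). In both replicates 24 members had one, against 8.09% of all genes. The remaining 4 of the 28 stood in the top regions of a single replicate. The genes mrpl-37 and mrpl-38 ranked 2188 and 3698 in replicate 1, and mrps-31 and mrps-6 ranked 2766 and 3924 in replicate 2.

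**Figure D1:**
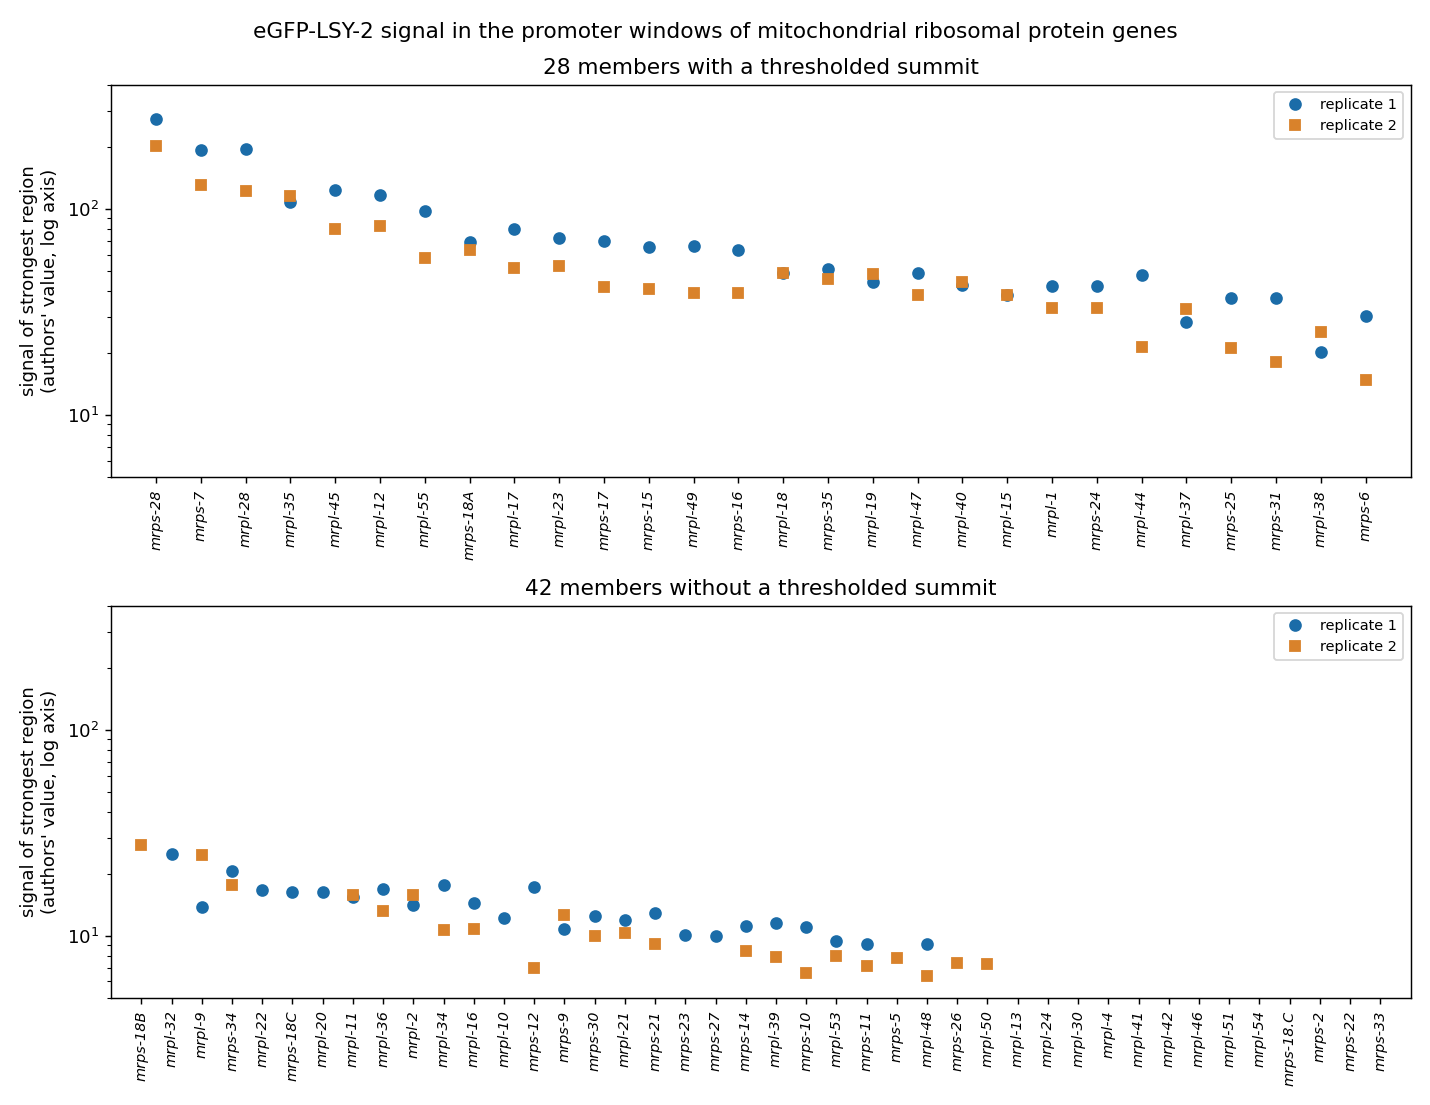
Signal of the strongest listed region (authors' value, log axis) in the promoter window of each of the 70 genes, with replicate 1 as circles and replicate 2 as squares; a gene with no point had no listed region. The 28 genes with a thresholded summit (upper panel) reach 275 in replicate 1 and 202 in replicate 2, and no gene of the lower panel exceeds 27.7.

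The strongest region lay at mrps-28, a small subunit gene on chromosome V, with a signal of 275 in replicate 1, 202 in replicate 2 and 471 for both replicates together, where it ranked 127 of 2182. It covered chrV:19643980-19644252, and its summit was 128 bp upstream of mrps-28 and 81 bp upstream of Y43F8C.7 on the other strand. Next came mrps-7, the homologue of the bacterial protein S7 that binds in the head of the small subunit, with 193 in replicate 1, 131 in replicate 2 and 330 together. Its summit lay 172 bp upstream, in a window shared with Y57G11C.3. Both genes kept nearly the same rank in each replicate (133 and 116 for mrps-28, 202 and 209 for mrps-7).

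Among the large subunit genes mrpl-28 was highest, with 196 in replicate 1, 123 in replicate 2 and 318 together. Its summit lay 113 bp upstream and in the window of no other protein-coding gene. The gene mrpl-35 had 108 in replicate 1, 115.3 in replicate 2 and 221 together. Its summit lay 123 bp upstream of mrpl-35 and 81 bp upstream of M01F1.4, on the other strand. It was thus higher in replicate 2, unlike the genes above.

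The gene mrpl-45, whose human homologue lies at the exit of the polypeptide tunnel, had 123 in replicate 1, 79.9 in replicate 2 and 202 together. The summit lay 345 bp upstream of mrpl-45 and 193 bp upstream of Y119D3B.12, the nearer gene. For mrpl-12, which encodes the stalk protein that recruits translation factors, the values were 116 in replicate 1, 82.6 in replicate 2 and 199 together. Its summit was 514 bp upstream and nearer to Y39A1A.22, at 219 bp, with Y39A1A.21 sharing it as well.

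The gene mrpl-55 had 97.5 in replicate 1, 58.0 in replicate 2 and 155 together, 139 bp upstream of its 5′ end and shared with no other gene. The gene mrps-18A had 69.5 in replicate 1, 63.5 in replicate 2 and 134 together. Its mammalian homologue is built into the large subunit despite the name. The summit at mrps-18A lay 91 bp upstream of it and 52 bp upstream of ZC262.2, with iglr-2 sharing it too.

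For mrpl-17 the signal was 80.05 in replicate 1, 51.8 in replicate 2 and 131 together, and its summit was shared with vbh-1, a DEAD-box RNA helicase gene. For mrpl-23, whose bacterial homologue lies at the exit tunnel, it was 72.3 in replicate 1, 52.9 in replicate 2 and 127 together. The mrpl-23 summit was the farthest of all, 990 bp upstream, and lay inside fars-1, the gene just before it on the same strand. The last of the 12 highest were mrps-17, with 70.0 in replicate 1 and 41.98 in replicate 2 and a summit shared with txdc-9, and mrps-15, with 65.4 in replicate 1 and 40.9 in replicate 2 and a summit shared with asg-1.

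The other 16 members ranged between a signal of 46.5 at mrps-6 and 107 at mrpl-49 for both replicates together. In falling order they were mrpl-49, mrps-16, mrpl-18, mrpl-19, mrpl-40, mrpl-47, mrps-35, mrpl-1 and mrps-24, mrpl-15, mrpl-44, mrpl-37, mrps-31, mrps-25, mrpl-38 and mrps-6. At the lower end, just inside the threshold, mrpl-38 had 47.1 and mrps-6 had 46.5, where the lowest thresholded region had 45.8. The nearest member outside it, mrps-34, had 43.3.

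The median signal over the 28 members was 102, against 99.7 over the 1940 other genes with a summit, where the median of all 2182 thresholded regions was 83.4. Within replicate 1 the median was 57.2 at members and 58.7 at the other genes, and within replicate 2 it was 43.1 at members and 42.3 at the other genes. A summit among ranks 1 to 545 was found at 7 of the 28 (25%), against 34.0% of the other genes, while 12 (42.9%) lay at ranks 546 to 1091, against 25.8%. A further 5 (17.9%) lay at ranks 1092 to 1636, against 22.2%, and 4 (14.3%) at ranks 1637 to 2182, against 18.1%. For comparison, the 69 of 83 cytosolic ribosomal protein genes with a summit (83.1%) had a median of 332. The 4 strongest of them were rpl-20 (6690) and rpl-3 (6665), followed by the small subunit gene rps-1 (5413) and by rpl-15 (5356). The difference between the 2 ribosomes was not tested.

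At every member with a thresholded summit, the rank by signal was the same in the thresholded list and in the list for both replicates together. A thresholded region thus need not repeat in rank: the strongest one in the sel-1 window ranked 1735 in replicate 1 and 17340 in replicate 2. The list was drawn from these same 2 replicates, so their agreement at these genes describes them and supports nothing. Across the 28 members Spearman's rho of the signal was 0.910, against 0.852 across 1931 other genes with a thresholded summit, and Pearson's r of log2 signal was 0.898. The genes share the 2 libraries, and mrpl-1 and mrps-24 share a region. Replicate 1 exceeded replicate 2 by a median factor of 1.39 at the members, against 1.41 at the other genes, and the SD of the log2 ratio was 0.40, against 0.50. The ratio ran between 0.798 at mrpl-38 and 2.23 at mrpl-44, and 5 of 28 genes were higher in replicate 2. Summits of the replicates lay a median 19.5 bp apart, and at most 106 bp, at mrps-25.

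**Figure D2:**
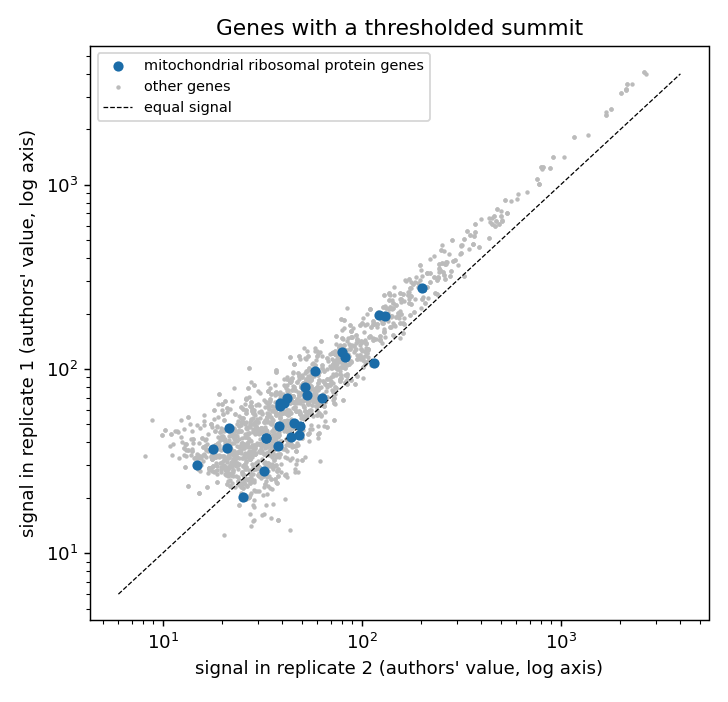
Signal of the strongest listed region in the promoter window in replicate 1 (y) against replicate 2 (x), both authors' values on log axes, for genes with a thresholded summit. Large points are the 28 mitochondrial ribosomal protein genes, small points other genes, and the dashed line marks equal signal; the 28 genes lie within the cloud of the others and well below its top.

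Summits lay close upstream of the 5′ ends. The median position at the 28 members was 168.5 bp upstream, with quartiles of -244.75 and -126.75 bp, against 226 bp upstream at the other genes. Between 50 and 300 bp upstream lay 20 of the 28 (71.4%), against 54.0% of the other genes. A single summit, at mrpl-47, lay downstream of the 5′ end, by 16 bp. An annotated 5′ end of a trans-spliced gene is often not the start of transcription.

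**Figure D3:**
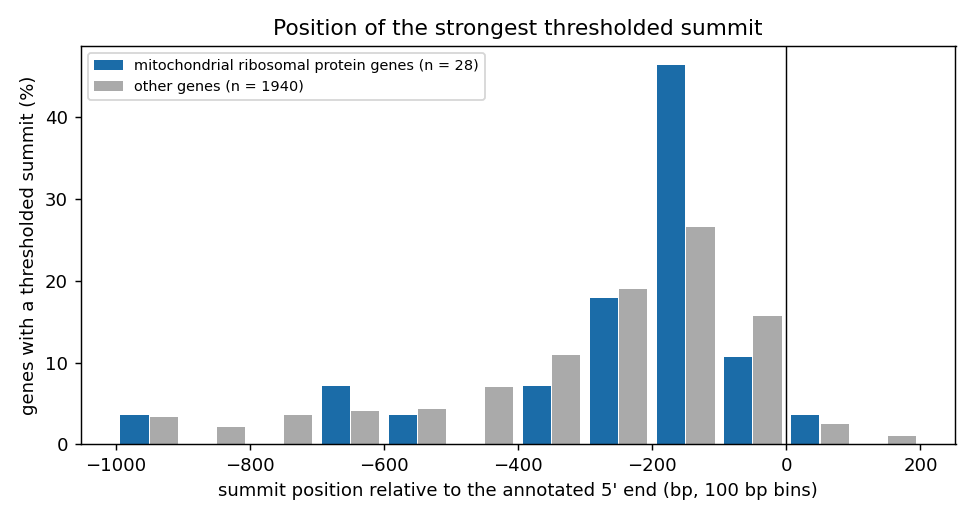
Position of the strongest thresholded summit relative to the annotated 5′ end, in 100 bp bins, as a share of the 28 mitochondrial ribosomal protein genes and of the 1940 other genes with a summit. Both peak between 200 and 100 bp upstream, and 20 of the 28 members lie between 50 and 300 bp upstream.

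Many of these summits were shared. At 17 of the 28 members (60.7%) the summit also lay in the window of a gene on the other strand, against 55.0% of the other genes with a summit. The member's own 5′ end was the nearest, ties included, in 18 of 28 (64.3%), against 69.4% of the other genes. The partners include rpl-28, a cytosolic ribosomal protein gene, which shares a summit with mrpl-49, and rpn-8, a proteasome subunit gene, which shares one with mrps-6. The pair mrpl-1 and mrps-24, which encode a protein of the large subunit stalk and a small subunit protein, shared 1 region of signal 42.1 in replicate 1 and 33.2 in replicate 2, together with emc-6, so the 28 members had 27 distinct summits.

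Whether a member had a summit went with its place among its neighbours. A gene was taken to follow closely when the nearest protein-coding gene upstream on its strand ended at most 500 bp before it, an arrangement found in operons but not an operon annotation. Of the 70 members 26 followed closely (37.1%), against 18.3% of the other genes. Only 2 of these 26 had a summit in their own window (7.69%), against 6.89% of all closely following genes, whereas 26 of the 44 members that followed no close gene had one (59.1%), against 10.5% of all such genes. The share in their own window depended on the gap. It was 1 of 19 members with a gap of at most 200 bp (5.26%, against 4.66% of the other genes) and 6 of 33 with at most 1000 bp (18.2%, against 6.78%). At 500 bp the 2 exceptions were mrpl-23, with its summit inside fars-1, and mrpl-19, 311 bp after rnf-145.

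**Figure D4:**
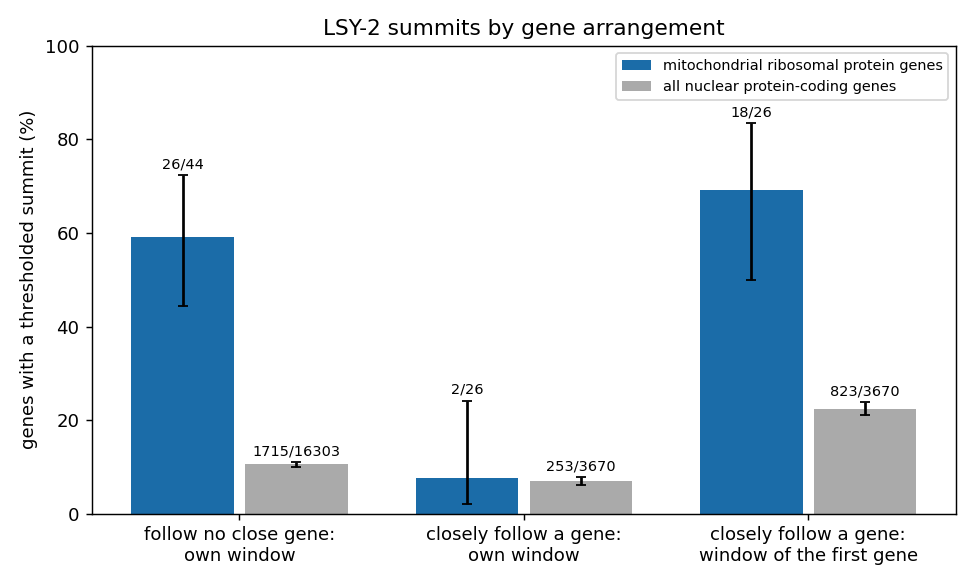
Share of genes with a thresholded summit, for mitochondrial ribosomal protein genes (left bars) and all nuclear protein-coding genes (right bars), by whether a same-strand gene ends within 500 bp upstream; error bars are 95% Wilson intervals, which cover the number of genes only. Members that follow closely have a summit in their own window in 2 of 26 cases, a count that moves to 6 of 33 at 1000 bp, and at the first gene of their run in 18 of 26.

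The closely following members mostly stood behind a gene that had a summit. Walking upstream through such neighbours to the first gene of the run, 18 of the 26 members had a thresholded summit in the window of that first gene (69.2%), against 22.4% of all closely following genes. The share of the other genes varied with the gap, on which the sets were not matched. With at most 200 bp it was 28.4%, against 14 of 19 members (73.7%), and with at most 1000 bp it was 17.4%, against 20 of 33 members (60.6%). Of the 24 members without a summit of their own, 17 had one there (70.8%), against 20.95% of the other genes in that position. The 26 members fall in 25 runs, of which 17 had a summit at the first gene, with signals of 46.3 to 2040 and a median of 141. These summits lay 8 to 937 bp upstream of the first gene, and some were nearer to another gene.

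The first genes serve many functions. The strongest was clsp-1, the claspin homologue of the replication checkpoint, ahead of mrpl-54, with a signal of 1251 in replicate 1 and 796 in replicate 2. Its summit was shared with eef-2 and lay 12 bp upstream of eef-2 but 253 bp upstream of clsp-1. The gap between clsp-1 and mrpl-54 was 373 bp. Then came rpn-3, a proteasome subunit gene ahead of mrpl-32, with 250 in replicate 1 and 178 in replicate 2. Others were W04D2.4 ahead of mrps-11 (150 and 88.5 in replicates 1 and 2) and F29B9.11 ahead of mrps-21 (146 and 94.7). The nuclear RNAi gene nrde-2, ahead of mrps-14, had 106 in replicate 1 and 82.2 in replicate 2. Its summit lay 937 bp upstream of nrde-2 and was shared with atad-3, the nearer gene.

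Mitochondrial genes stood among them as well. The gene misc-1, which encodes a mitochondrial carrier, leads mrpl-41 and had 126 in replicate 1 and 53.0 in replicate 2, with its summit 816 bp upstream. The ATP synthase beta subunit gene atp-2 leads a run with prmt-5 and mrps-26 and had 69.0 in replicate 1 and 43.6 in replicate 2. The run led by natc-1 (38.3 in replicate 1 and 45.6 in replicate 2) holds both mrps-2 and mrpl-4, neither of which had any listed region of its own. The weakest was sel-1, ahead of mrps-5, with 33.8 in replicate 1 and 8.13 in replicate 2, where it ranked 17340.

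The remaining first genes with a summit were fars-1, eif-3.E, T14B4.3, tag-124, W04B5.5, F21D5.7, vps-37 and num-1. The fars-1 summit lay 886 bp upstream of fars-1 and was shared with rbm-5, at 156 bp, and the num-1 summit lay 798 bp upstream. The 7 closely following members with no summit at either place were mrpl-24, mrpl-50, mrps-22, mrpl-21, mrps-9, mrpl-2 and mrpl-42. Of these mrpl-24 follows zipt-11, an inner gene of its run that had a summit. The gene mrps-22 directly follows dap-3, which encodes a further protein of the small mitochondrial subunit, in a run that starts at the RNA polymerase subunit gene rpb-6. Counting each closely following member by the first gene of its run and the rest by their own window, 44 of 70 members (62.9%) had a summit, against 12.5% of the other genes.

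The 42 members without a thresholded summit had weak regions or none. In replicate 1 the strongest listed region in the window had a signal of 9.15 to 25.01 (median 12.97) at 25 of them, and 17 had no listed region. In replicate 2 it was 6.36 to 27.7 (median 9.51) at 22 of them, and 20 had none. The median listed region of the genome had 11.1 in replicate 1 and 8.67 in replicate 2. In neither replicate was a region listed at 13 of the 70 members (18.6%), against 48.0% of all genes. These 13 were mrpl-13, mrpl-24, mrpl-30, mrpl-4, mrpl-41, mrpl-42, mrpl-46, mrpl-51, mrpl-54, mrps-18.C, mrps-2, mrps-22 and mrps-33.

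Counting members with and without a thresholded summit, 53 of 70 had some listed region in replicate 1, against 38.3% of all genes, and 50 had one in replicate 2, against 39.7%. The members without a thresholded summit that ranked highest by the mean of their ranks in both replicates began with mrps-34, which had 20.6 in replicate 1 and 17.6 in replicate 2, at ranks 3552 and 2875. The gene mrpl-11, whose bacterial homologue lies at the base of the stalk, had 15.5 and 15.8 at ranks 6651 and 3449. By that mean rank mrpl-36 (ranks 5476 and 5052), mrpl-9 (8872 and 1699) and mrpl-2 (8477 and 3499) followed. By the signal for both replicates together the order was mrps-34 (43.3), mrpl-9 (36.4), mrps-18B (36.2), mrpl-11 (34.9) and mrpl-2 (31.4), with mrpl-36 lower at 23.3. Both mrpl-9 and mrps-18B were among the top regions of replicate 2 only, and mrps-18B had no listed region in replicate 1 and 27.7 in replicate 2.

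By chromosome, a summit lay at 8 of 15 members on I (53.3%, against 15.4% of the other genes there), 3 of 12 on II (25%, against 9.95%) and 9 of 22 on III (40.9%, against 16.2%). It lay at 5 of 11 members on IV (45.5%, against 9.30% of the other genes) and 3 of 10 on V (30.0%, against 5.56%). None of the 70 genes lies on X.

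The letters seen in the windows printed first recurred at members' summits and were absent from the windows beside them. CGCAAAC occurred in 9 of the 27 summit windows (33.3%) and in 0 of 54 equally wide windows placed 300 bp to either side, which allows a share of up to 5.56%. GTCCGCA occurred in 7 (25.9%) and in 0 of the 54. The 2 strings were chosen after the members' windows had been read, so these counts describe them and support nothing further. In the 2155 other thresholded regions they were present in 6.50% and 4.97% of windows, and in windows centred 168 bp upstream of the 19903 other genes in 1.12% and 0.648%.

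Both strings were present in 5 member windows, and in mrpl-28, mrpl-45 and mrps-16 they overlap. CGCAAAC occurred in 0 of 65 summit windows of cytosolic ribosomal protein genes, which allows up to 4.62%, and GTCCGCA in 1 of them (1.54%). A median of 37.6% of the bases of the member windows were in lower case in the RefSeq sequence, which marks repeats and low-complexity sequence, against 19.8% in the other regions. The part of repeats, or of reads that map to several places, in these results was not tested.

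Letters common at LSY-2 regions elsewhere were less frequent or about as frequent here. GAGAGA stood in 3 of the 27 windows (11.1%), against 25.6% of the other regions, and GCGTCTC in 3 (11.1%), against 11.6%. The 5 6-mers whose share differed most between the other regions and their sides were GAGAGA and AGAGAG together with GACGCA and ACGCAG as well as CGTCTC, which overlap one another. At least 1 of them was in 6 member windows (22.2%), against 47.0% of the other regions. CGTCTC alone was in 5 (18.5%), against 18.2%. CCGCCC was in 1 of the 27 windows, against 5.75% of the other regions, and TTTCAG, the letters of a splice acceptor, was in 1, against 5.99%. TATAAA was in 0 of 27, which allows up to 11.1%, against 4.45%. Both TTTCAG and TATAAA were rarer at the other regions than beside them, where 22.1% and 11.1% of windows held them. The median GC content was 45.5% in member windows, against 47.5% in the other regions.

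Other genes of mitochondrial gene expression, and genes of mitochondrial protein import and chaperones, also had summits, in part. The share of all nuclear protein-coding genes was 9.85%. Of 15 genes for mitochondrial translation factors and aminoacyl-tRNA synthetases, 4 had one (26.7%): the elongation factor genes tufm-1 (signal 221), gfm-1 (76.0) and tufm-2 (65.9), and the glutamyl-tRNA synthetase gene ears-2 (170). Of 6 genes for mitochondrial DNA maintenance and transcription, mtss-1, the single-stranded DNA binding protein gene, was the one with a summit (60.2), and the polymerase genes polg-1 and rpom-1 had none. Of 13 genes for protein import and chaperones, 6 had one (46.2%), the strongest at the chaperone gene hsp-60 (898), followed by the import genes timm-17B.1 (422), tomm-20 (326) and timm-23 (143). The lists are short, and differences between them were not tested.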

How the data were processed

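Both replicates of eGFP-LSY-2 ChIP-seq in L2 larvae formed 1 group, numbered as in the labels. Regions were called by the authors on ce11 alignments against a control, for each replicate and for both together, per the deposited lists of files; aligner and caller were not given in the sources used here. Each deposited signal value is the caller's own, so groups of genes were compared within a list only, and ratios between replicates rest on unmatched scales. The deposited −log10 q-value was not used for ranking, since 97.6% of the thresholded regions share its maximum of 3.63. The ce10 lists were not used here, since the annotation is of ce11.

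Genes and 5′ ends are those of Ensembl release 115 on WBcel235, and sequence is from RefSeq's copy of that assembly. For each gene the strongest summit in its window was taken. Runs allow a gap of 500 bp and an overlap of up to 50 bp. Members, lists and windows were chosen with earlier results of these data known, and CGCAAAC and GTCCGCA after reading the sequences. Of the symbols listed for other mitochondrial genes, 3 (cars-2, mars-2 and wars-2) matched no gene. The text names the 12 members of highest signal, the 5 without a thresholded summit that rank highest by mean rank in both replicates, the genes sharing summits, and up to 4 genes of each other list. No test across genes was run, because a list of genes is described here by counts beside those of all genes. Intervals are Wilson intervals at 95% and cover the number of genes only. Alternatives were other windows, region overlap, nearest 5′ ends, all transcripts, the upper 50% of regions, each replicate alone, other list lengths, gaps and window widths. Python 3.11.15, numpy 2.4.6, pandas 2.3.3, scipy 1.17.1 and matplotlib 3.10.9 were used. The assignment of summits was tested on simulated data.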

Additional observations from a re-analysis of the deposited data

How the results depend on the processing

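Counts of members with a summit stayed within 1.5 times under most alternatives. Of the 70 members, 24 had a summit in a window of 500 bp upstream to 100 bp downstream, 32 in one of 2000 bp upstream, 29 by overlap of region and window, 22 by the nearest 5′ end within 5 kb, 19 in the upper 50% of regions and 28 with every transcript; the shares of all genes were 8.11%, 12.4%, 10.5%, 9.50%, 5.90% and 10.4%. With the nearest 5′ end, 9 members lost their summit, mrps-28 among them, and 3 gained one. In the upper 50% of regions, 7 mrps genes had a summit. Among the 1000 regions of highest signal, 14 members had one in both replicates, against 4.67% of all genes, and among 5000 there were 29, against 11.6%. The ratio of the median signal to that of the other genes, 1.03, was 1.10 with each summit counted once and 0.7996 in the upper 50%. With a gap of at most 200 bp, 1 of 19 closely following members had a summit (other genes 4.66%), and 6 of 33 with at most 1000 bp (18.2%, other genes 6.78%). With a replicate left out, the count was 26 to 28 for all members, 15 to 18 for mrpl genes, 10 to 11 for mrps genes, 2 for closely following members, 18 to 19 at the first genes, 24 to 26 for the rest and 17 to 19 for summits nearest to their own end; the ratio of medians was 0.998 to 1.07 and the median position -189.5 to -159 bp. TATAAA was in 14.8% of windows of 100 bp to each side, against 12.2% of the other regions and 25.9% of the windows beside members' summits. No paired analysis was possible because there is 1 group and no contrast. Unknown depth limits all counts near the threshold.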

Other observations

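The gaps between closely following members and the gene before them were narrowly spread. They ran between 25 and 460 bp with a median of 105 bp, and 18 of 26 (69.2%) were 80 to 120 bp, against 24.9% of the 3644 other closely following genes. The band was chosen after the gaps were seen. The cytosolic ribosomal protein genes are arranged differently, with 9 of 83 (10.8%) following closely, and 66 of the 74 that followed no close gene had a summit (89.2%).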
